A study of Mus musculus with 6 samples.

Results

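Aminoacyl-tRNA synthetases are the enzymes that join each amino acid to its tRNA. Of the 42256 genes in the count table, 38 were selected by symbol from a list of these enzymes and their scaffold proteins: 20 cytosolic synthetase genes, 2 scaffold genes of the multi-synthetase complex and 16 mitochondrial synthetase genes. The cytosolic methionyl enzyme was matched by its renamed form, Mars1, which the annotation calls Mars. The matching by symbol used no values of these genes, but the list itself was chosen with earlier results of these data known. All 38 passed the filter on low counts, and no library held fewer than 123 counts of any of them.

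RNA was sequenced from macrophages grown out of bone marrow of adult male mice, a culture in which marrow precursors become macrophages under the growth factor that L929 cells release. The first group, called KO here, was of genotype CDH11-/-, and the second, called WT, was CDH11+/+. Cdh11 encodes cadherin-11, a cell adhesion protein. Both groups shared a mixed 129S1/Sv x C57BL/6 strain background, 7 days in RPMI 1640 with 20% L929 conditioned medium and 10% FBS, and no treatment before RNA extraction. Each group had 3 libraries. The design text speaks of 3 WT and 4 CDH11-/- animals, while the sample labels name no animal, so the p-values measure the spread between libraries, which may be technical. The genotype label could not be checked on its gene, because Cdh11 had 6, 4 and 5 counts in KO and 6, 11 and 6 counts in WT.

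Charging a tRNA is the step at which the genetic code is read chemically, since the ribosome does not inspect the amino acid that a tRNA carries. Mammalian cells keep separate nuclear genes for charging in the cytosol and in mitochondria, except for glycine and lysine, for which Gars and Kars each encode both enzymes, and for glutamine, which has no mitochondrial synthetase of its own. In the cytosol several synthetases are bound to each other in the multi-synthetase complex, held together by the scaffold proteins Aimp1, Aimp2 and Eef1e1. Transcription of many cytosolic synthetase genes is known to be raised by ATF4, a factor made when amino acids are short or protein folding is disturbed.

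The motif TGATGNAA, which ATF4 binds together with C/EBP proteins, and the E-box CACGTG, bound by MYC and USF proteins, were searched on both strands of the RefSeq promoter windows (GRCm38.p6, 250 bases before to 50 bases after each annotated start). A window was present for 13 of the 20 cytosolic genes, both scaffold genes and 14 of the 16 mitochondrial genes. Those without one were Cars, Hars, Lars, Nars, Rars, Vars, Wars, Hars2 and Pars2. TGATGNAA was found in 5 of 13 cytosolic genes (38.5%), in 0 of 2 scaffold genes and in 0 of 14 mitochondrial genes, against 1219 of all 27025 genes with a window (4.51%). The 5 genes are shown because no other window of a member held a match. Each stretch is written 5′ to 3′ on the strand of its gene, with the 8 matched bases in capitals, and capitals that begin with TT and end with ATCA are the motif read from the other strand.
Aars, chr8:111033840-111033869, plus strand: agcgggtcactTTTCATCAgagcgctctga
Gars, chr6:55037960-55037989, plus strand: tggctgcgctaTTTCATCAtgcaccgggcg
Iars, chr13:49682126-49682155, plus strand: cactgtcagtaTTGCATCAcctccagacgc
Tars, chr15:11399655-11399684, minus strand: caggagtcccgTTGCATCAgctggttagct
Yars, chr4:129189895-129189924, plus strand: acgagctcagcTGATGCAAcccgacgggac

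With only the 250 bases before the annotated start, 3 of 13 cytosolic genes (23.1%) held TGATGNAA, against 3.91% of all genes. CACGTG was found in 4 of 13 cytosolic genes (30.8%), Aars, Farsb, Iars and Tars, and in 1 of 14 mitochondrial genes (7.14%), Ears2, against 8.09% of all genes. With only the 250 bases before the start CACGTG was found in 3 of 13 cytosolic genes (23.1%) and in 0 of 14 mitochondrial genes, against 6.86% of all genes, since the match of Ears2 lies after the start. Iars and Ears2 are shown, one of each compartment, with the 6 matched bases in capitals. In GENCODE M21 the stretches of Aars, Yars, Tars and Ears2 and the TGATGNAA stretch of Iars lie in or reach into a 5′ UTR of an annotated transcript, while those of Gars and the CACGTG stretch of Iars lie in no exon. No CACGTG match overlaps a TGATGNAA match. A match describes letters in a window and does not show that a protein was bound there in these cells.
Iars, chr13:49682050-49682077, plus strand: accaatcgccaCACGTGttgtttgtagg
Ears2, chr7:122067049-122067076, minus strand: gcgaaggagccCACGTGtgtgtttctag

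Most cytosolic synthetase genes were higher in KO macrophages, and most mitochondrial synthetase genes did not pass the test. Of 20 cytosolic synthetase genes 17 rose and 0 fell at an adjusted p under 0.05 (edgeR, quasi-likelihood test, Benjamini-Hochberg adjustment over all 12862 genes tested). Of 16 mitochondrial synthetase genes 4 rose and 0 fell, and of the 2 scaffold genes 1 rose. Among all genes tested, 18.5% rose and 16.8% fell, so that 35.2% were called in either direction. The mitochondrial share of rises lay near this background, and the cytosolic share lay far above it. The difference between the classes as lists was not tested. At an unadjusted p under 0.05, 18 cytosolic genes were higher and 0 lower, and 7 mitochondrial genes were higher and 1 lower. The share of all genes at that unadjusted threshold is not given, here or for the lists below. In the main fit it cannot be under the 35.2% called after adjustment. DESeq2 and limma-voom also called 0 falls in either class, against 15.9% and 17.0% of the genes each tested.

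The median log2 fold change, KO over WT, was 0.46 for the 20 cytosolic genes, with a range of 0.08 to 0.84. The median was 0.20 for the 16 mitochondrial genes, with a range of -0.16 to 0.54. It was 0.00 over all genes tested, with quartiles of -0.23 and 0.27. All 20 cytosolic genes and 13 of 16 mitochondrial genes had a positive value, against 50.2% of all genes. In 18 cytosolic and 7 mitochondrial genes the lowest KO library stood above the highest WT library, which was so for 27.0% of all genes tested. The reverse held for 0 cytosolic genes and 1 mitochondrial gene, Hars2, against 26.4% of all genes. Since a gene's level in bulk RNA is an average over the dish, fewer cells of a type and less RNA per cell cannot be told apart.

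**Figure D1:**
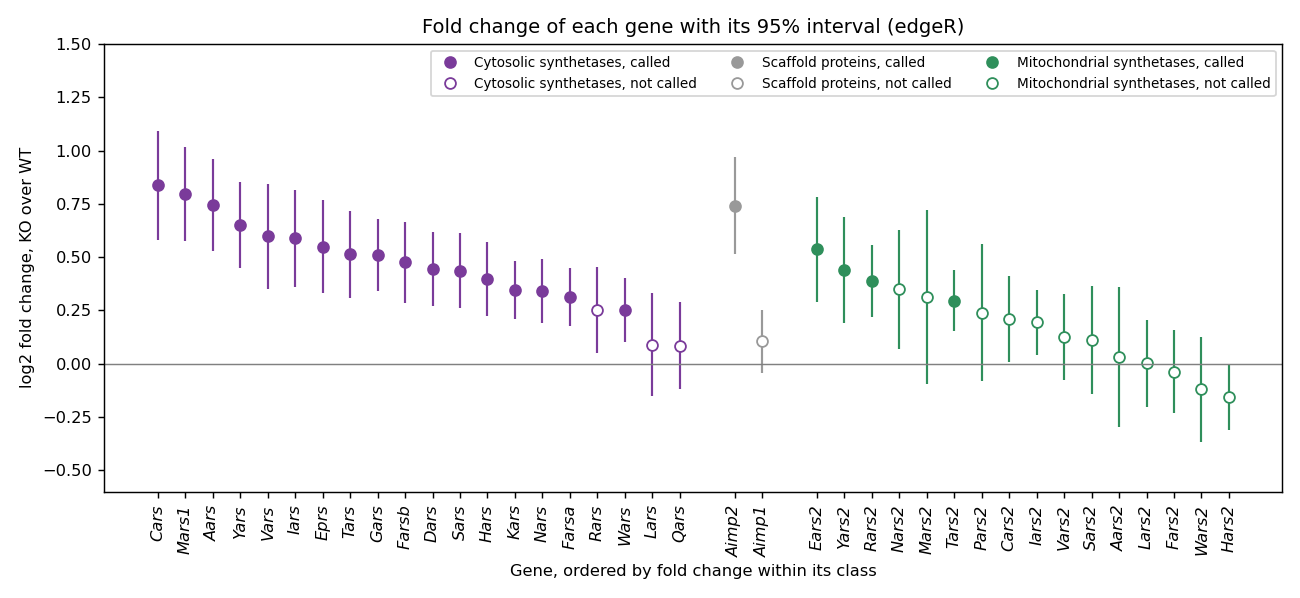
Log2 fold change of each of the 38 genes, KO over WT, with its 95% interval from edgeR's quasi-likelihood fit, arranged by class. The 17 called cytosolic genes lie between 0.25 and 0.84, whereas 12 of the 16 mitochondrial genes were not called and 3 lie below 0.

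Levels are given as CPM, the counts of a gene scaled to a common library size. As a summed level, the 20 cytosolic genes held 1756, 2099 and 1941 CPM in KO 1, KO 2 and KO 3, against 1417, 1391 and 1452 CPM in WT 1, WT 2 and WT 3. The 16 mitochondrial genes held 313, 327 and 320.0 CPM in KO, against 308, 291 and 285 CPM in WT. In both classes every KO sum stood above every WT sum, but the gap between the groups was narrow for the mitochondrial genes and wide for the cytosolic genes. Below, library values stand in the order 1, 2 and 3 within each group. Levels of different genes are compared only per kilobase of the principal transcript. On that scale the median level was 31.0 CPM per kb in KO and 22.8 CPM per kb in WT for the cytosolic genes, and 5.47 CPM per kb in KO and 4.54 CPM per kb in WT for the mitochondrial genes.

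Of the cytosolic synthetases outside the multi-synthetase complex, all 12 rose, and the median of their log2 fold changes was 0.49. The largest rise among all members was that of Cars, the cysteinyl-tRNA synthetase gene (ENSMUSG00000010755, chr7:143557230-143600090, minus strand). Cars had 46.7, 63.0 and 58.3 CPM in KO, against 30.7, 30.9 and 32.5 CPM in WT. Its log2 fold change was 0.84 (SE 0.11, 95% interval 0.58 to 1.09, adjusted p = 0.00522 by edgeR), a 1.79-fold difference. The groups did not overlap, and KO 1 was the lowest of the KO libraries.

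Aars, the alanyl-tRNA synthetase gene (ENSMUSG00000031960, chr8:111033144-111057664, plus strand), whose window held both TGATGNAA and CACGTG, had 162, 207 and 194 CPM in KO, against 109, 114 and 113 CPM in WT. Every KO library stood well above every WT library, and the log2 fold change was 0.75 (SE 0.09, 95% interval 0.53 to 0.96, adjusted p = 0.00499 by edgeR). Aars lies 8.25 Mb from Cdh11 on chromosome 8, and Kars lies 9.21 Mb and Farsa 17.8 Mb from it. The line is of mixed strain background, and from which strain the DNA around Cdh11 came was not tested. Aars also shares 1326 bases of exon with Exosc6 on the same strand, a gene to which no row of the count table was matched. The part of those shared bases in the counts of Aars was not tested.

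Yars, the tyrosyl-tRNA synthetase gene (ENSMUSG00000028811, chr4:129189760-129219607, plus strand), had 48.3, 60.1 and 57.5 CPM in KO, against 34.5, 35.0 and 36.2 CPM in WT. Vars, the gene of the valyl enzyme, had 49.1, 63.9 and 61.0 CPM in KO, against 37.3, 36.5 and 41.2 CPM in WT. Tars, the gene of the threonyl enzyme, had 73.2, 89.9 and 77.3 CPM in KO, against 58.6, 57.0 and 52.6 CPM in WT. None of these 3 genes overlapped between the groups, and their log2 fold changes were 0.65 (SE 0.09), 0.60 (SE 0.11) and 0.51 (SE 0.09). Their adjusted p-values by edgeR were 0.00528 for Yars, 0.00809 for Vars and 0.00730 for Tars.

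Gars, which encodes the glycyl enzyme of both the cytosol and mitochondria, had 88.2, 93.4 and 88.2 CPM in KO, against 66.2, 57.1 and 66.2 CPM in WT. Farsb, the gene of the beta subunit of the phenylalanyl enzyme, had 47.4, 57.4 and 48.8 CPM in KO, against 37.2, 35.6 and 37.6 CPM in WT. Farsa, the gene of its alpha subunit, had 52.8, 57.5 and 58.2 CPM in KO, against 44.7, 46.3 and 44.5 CPM in WT. The KO libraries were the higher ones in all 3 genes, with log2 fold changes of 0.51 for Gars (adjusted p = 0.00567), 0.48 for Farsb (adjusted p = 0.00742) and 0.31 for Farsa (adjusted p = 0.00906) by edgeR. The 2 subunits of the same enzyme thus both rose, Farsb with an SE of 0.08 and Farsa with an SE of 0.06, and the difference between their changes was not tested.

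Sars, the seryl-tRNA synthetase gene, had 119, 143 and 137 CPM in KO, against 97.9, 98.8 and 98.0 CPM in WT. Hars, the gene of the histidyl enzyme, had 60.9, 72.6 and 69.2 CPM in KO, against 52.0, 49.9 and 52.0 CPM in WT. Nars, the gene of the asparaginyl enzyme (ENSMUSG00000024587, chr18:64499647-64516652, minus strand), had 225, 254 and 241 CPM in KO, against 186, 197 and 185 CPM in WT. In each the groups stood apart, with log2 fold changes of 0.44, 0.40 and 0.34 and adjusted p-values of 0.00765, 0.00893 and 0.00920 by edgeR. Per length Nars was the most abundant member, with 87.5 ± 5.25 CPM per kb in KO and 69.0 ± 2.28 CPM per kb in WT (SD, n = 3 each).

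The smallest of the 12 rises was that of Wars, the tryptophanyl-tRNA synthetase gene, which interferon is known to induce. Wars had 52.2, 59.6 and 58.7 CPM in KO, against 46.8, 48.5 and 47.9 CPM in WT. Its log2 fold change was 0.25 (SE 0.07, 95% interval 0.10 to 0.40, adjusted p = 0.0231 by edgeR). The KO libraries were still the higher ones, but the call was lost when KO 2, KO 3, WT 1, WT 2 or WT 3 was left out, when its adjusted p by edgeR lay between 0.0584 and 0.0873. The annotated span of Wars, introns included, also overlaps that of Wdr25 on the opposite strand by 544 bases. No source used here states whether the counting used strand.

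**Figure D2:**
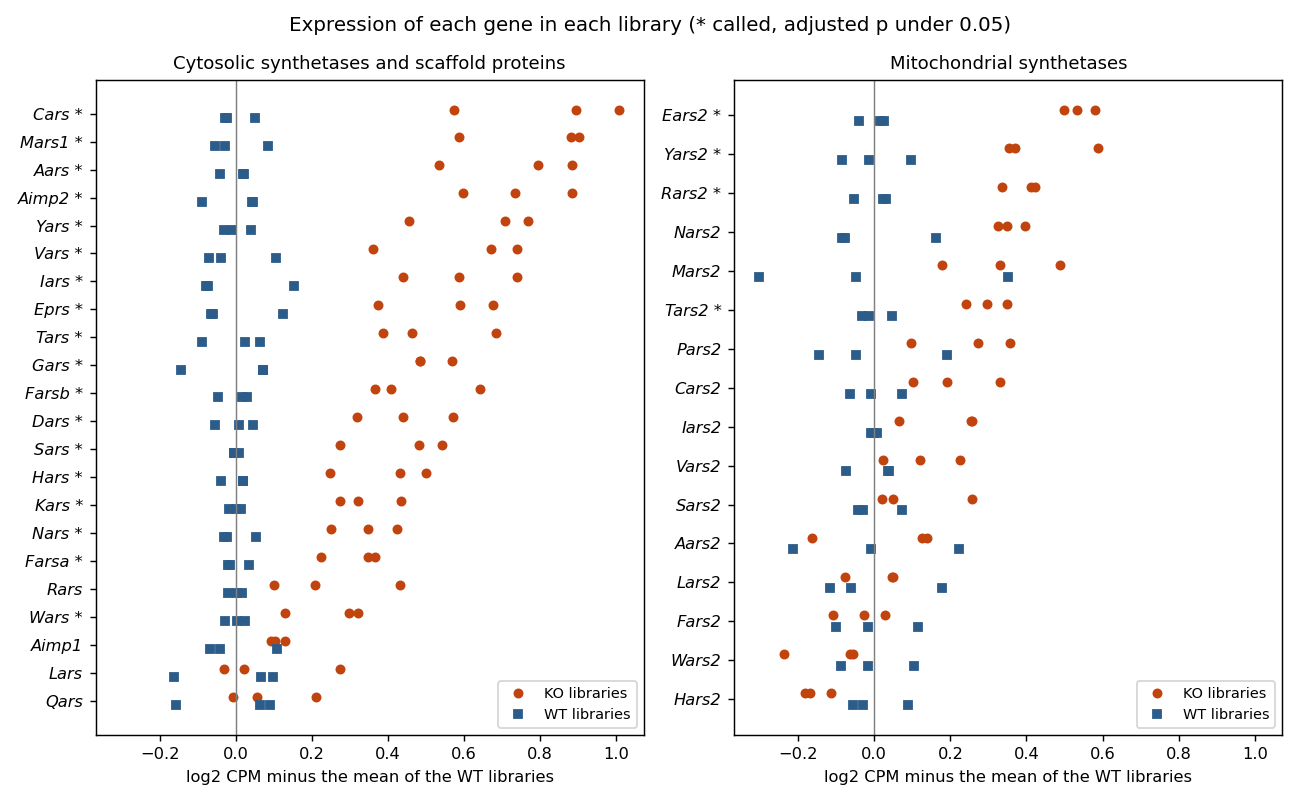
Log2 CPM of each gene in each library minus the mean of the WT libraries, with KO libraries as circles and WT libraries as squares, and an asterisk where edgeR called the gene. KO 2 was the highest KO library in 19 of 20 cytosolic genes and KO 1 the lowest in 19 of 20. The shares of all genes with these orders are not given.

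Of the 8 synthetase genes of the multi-synthetase complex 5 rose, with a median log2 fold change over the 8 of 0.40, and Lars, Qars and Rars were not called. The difference from the genes outside the complex was not tested. Mars1, the methionyl-tRNA synthetase gene (ENSMUSG00000040354, chr10:127296221-127311786, minus strand), had 54.7, 68.1 and 67.1 CPM in KO, against 35.0, 35.7 and 38.6 CPM in WT, so that the groups were far apart. Its log2 fold change was 0.80 (SE 0.09, 95% interval 0.58 to 1.02, adjusted p = 0.00484 by edgeR), the second largest of the members and the smallest adjusted p. The annotated span of Mars1 overlaps that of Ddit3, the gene of the stress factor CHOP, on the opposite strand by 68 bases.

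Iars, the isoleucyl-tRNA synthetase gene whose window also held both motifs, had 110.0, 136 and 122 CPM in KO, against 77.1, 76.8 and 90.2 CPM in WT. Eprs, which encodes one chain that charges both glutamate and proline, had 132, 163 and 154 CPM in KO, against 97.9, 97.6 and 111 CPM in WT. Dars, the gene of the aspartyl enzyme, had 80.1, 95.4 and 87.0 CPM in KO, against 64.6, 61.8 and 66.2 CPM in WT. In each of the 3 the groups stood apart, and the log2 fold changes were 0.59 (SE 0.10), 0.55 (SE 0.09) and 0.45 (SE 0.07), with adjusted p-values of 0.00708, 0.00727 and 0.00708 by edgeR. Iars shares 1656 bases at 96.0% identity with the processed pseudogene Gm4849, which held only 0.0225 CPM in KO and 0.0252 CPM in WT.

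Kars, which encodes the lysyl enzyme of both compartments, had 86.3, 96.5 and 89.2 CPM in KO, against 71.5, 72.1 and 70.6 CPM in WT. Its groups were well apart too, with a log2 fold change of 0.35 (SE 0.06, adjusted p = 0.00737 by edgeR). Thus Kars and Gars, which serve both compartments from a single gene each, both rose. They are counted here among the cytosolic genes.

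Lars, the leucyl-tRNA synthetase gene whose human product is also known to sense leucine for mTORC1 (ENSMUSG00000024493, chr18:42202298-42262194, minus strand), had 75.3, 92.9 and 78.1 CPM in KO, against 80.6, 68.7 and 82.3 CPM in WT. KO 1 and KO 3 lay within the range of the WT libraries, and the log2 fold change was 0.09 (SE 0.10, 95% interval -0.15 to 0.33, adjusted p = 0.523 by edgeR). Qars, the glutaminyl-tRNA synthetase gene (ENSMUSG00000032604, chr9:108507706-108515941, plus strand), had 101, 112 and 96.3 CPM in KO, against 103, 86.9 and 101 CPM in WT. Here too the groups overlapped, and the log2 fold change was 0.08 (SE 0.09, 95% interval -0.12 to 0.29, adjusted p = 0.477). The intervals of both end below the log2 fold changes of Mars1 and Iars.

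Rars, the arginyl-tRNA synthetase gene, had 91.2, 115 and 98.2 CPM in KO, against 86.0, 85.3 and 83.8 CPM in WT. All KO libraries stood above all WT libraries, yet the gene missed the threshold with a log2 fold change of 0.25 (SE 0.09, 95% interval 0.05 to 0.46, adjusted p = 0.0551 by edgeR).

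The scaffold genes differed from each other. Aimp2, a scaffold at the centre of the complex (ENSMUSG00000029610, chr5:143902704-143909847, minus strand), had 14.8, 18.1 and 16.3 CPM in KO, against 10.1, 9.21 and 10.1 CPM in WT. The KO libraries were all well above the WT libraries, and the log2 fold change was 0.74 (SE 0.10, 95% interval 0.51 to 0.97, adjusted p = 0.00524 by edgeR). The annotated span of Aimp2 overlaps that of Eif2ak1, the gene of the heme-regulated eIF2 alpha kinase, on the opposite strand by 1548 bases. The longest stretch that their transcripts share is 488 bases, and Eif2ak1 averaged 72.5 CPM in KO and 79.1 CPM in WT. The part of those shared bases in the counts of Aimp2 was not tested. Aimp1, which also gives rise to a secreted cytokine, had 39.5, 40.2 and 39.2 CPM in KO, against 39.6, 35.7 and 35.1 CPM in WT. Its KO libraries were close to each other and overlapped WT, and the log2 fold change was 0.11 (SE 0.06, 95% interval -0.04 to 0.25, adjusted p = 0.226).

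Of the mitochondrial synthetases, Ears2, Rars2, Yars2 and Tars2 rose. Ears2, the glutamyl-tRNA synthetase gene of mitochondria (ENSMUSG00000030871, chr7:122037213-122067263, minus strand), had 6.74, 7.14 and 6.91 CPM in KO, against 4.82, 4.64 and 4.86 CPM in WT. The groups stood apart with little spread inside each, and the log2 fold change was 0.54 (SE 0.11, 95% interval 0.29 to 0.78, adjusted p = 0.0104 by edgeR). In mitochondria this enzyme also charges the glutamine tRNA with glutamate, which an amidotransferase then converts to glutamine. The annotated span of Ears2 overlaps that of Ubfd1 on the opposite strand by 89 bases.

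Rars2, the arginyl enzyme's mitochondrial counterpart (ENSMUSG00000028292, chr4:34614957-34660167, plus strand), had 15.2, 16.0 and 16.1 CPM in KO, against 12.2, 11.6 and 12.3 CPM in WT. Yars2, the tyrosyl counterpart, had 10.2, 12.0 and 10.3 CPM in KO, against 7.90, 8.53 and 7.52 CPM in WT. Tars2, the threonyl counterpart, had 26.1, 27.1 and 28.2 CPM in KO, against 21.6, 22.8 and 21.9 CPM in WT. The KO libraries were the higher ones in each, with log2 fold changes of 0.39 (SE 0.07, adjusted p = 0.00894), 0.44 (SE 0.11, adjusted p = 0.0187) and 0.30 (SE 0.06, adjusted p = 0.0121) by edgeR. Without WT 1 the number of mitochondrial rises was 2, against 7.93% of all genes in that fit, since Yars2 and Tars2 then missed the threshold. The call of Yars2 was also lost without KO 2 or WT 3, and that of Tars2 without KO 3.

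The other 12 mitochondrial genes were not called. The lowest log2 fold change was that of Hars2, the histidyl-tRNA synthetase gene of mitochondria, with 21.7, 22.7 and 21.9 CPM in KO, against 26.1, 23.6 and 24.1 CPM in WT. Its KO libraries all stood below its WT libraries, but the log2 fold change of -0.16 (SE 0.07, 95% interval -0.31 to -0.0025) had an adjusted p of 0.0999 by edgeR. Hars2 lies head to head with Hars on opposite strands, and their annotated spans overlap by 198 bases. Hars rose while Hars2 did not.

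Lars2, the leucyl gene of mitochondria, had 93.7, 93.6 and 85.8 CPM in KO, against 102, 86.7 and 83.5 CPM in WT. The groups overlapped fully, with a log2 fold change of 0.00 (95% interval -0.20 to 0.21, adjusted p = 0.993). Per length Lars2 was the most abundant mitochondrial synthetase, with 23.4 ± 1.17 CPM per kb in KO and 23.3 ± 2.60 CPM per kb in WT, and Mars2 the least abundant, with 0.864 ± 0.093 CPM per kb in KO and 0.697 ± 0.162 CPM per kb in WT (SD, n = 3 each). Neither differed between genotypes past the threshold.

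Nars2, the asparaginyl gene of mitochondria, had 6.42, 6.52 and 6.74 CPM in KO, against 5.73, 4.83 and 4.86 CPM in WT. Iars2, the isoleucyl gene, had 48.9, 55.9 and 55.8 CPM in KO, against 46.5, 47.0 and 46.8 CPM in WT. Cars2, the cysteinyl gene, had 17.6, 15.9 and 15.0 CPM in KO, against 13.9, 14.7 and 13.3 CPM in WT. In all 3 the lowest KO library stood above the highest WT library, yet none passed, with log2 fold changes of 0.35, 0.19 and 0.21 and adjusted p-values of 0.0563, 0.0538 and 0.0922 by edgeR. Iars2 overlaps Rab3gap2 on the opposite strand by 2034 bases of exon, and Rab3gap2 averaged 119 CPM in KO and 115 CPM in WT. The annotated span of Cars2 overlaps that of Naxd by 984 bases.

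Mars2, the methionyl gene of mitochondria, had 8.74, 9.71 and 10.8 CPM in KO, against 7.47, 6.26 and 9.86 CPM in WT, with a log2 fold change of 0.31 (SE 0.17, adjusted p = 0.197). Its groups overlapped, since WT 3 stood above KO 1 and KO 2. The log2 fold changes of Pars2, Vars2 and Sars2, for proline, valine and serine, were 0.24, 0.13 and 0.11, with adjusted p-values of 0.208, 0.287 and 0.447 by edgeR. Those of Aars2, Fars2 and Wars2, for alanine, phenylalanine and tryptophan, were 0.03, -0.04 and -0.12, with adjusted p-values of 0.885, 0.743 and 0.399. Levels of these 6 genes overlapped between the groups. The SE over the mitochondrial genes ran from 0.06 to 0.17, against 0.06 to 0.11 over the cytosolic genes, whose counts were mostly larger.

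**Figure D3:**
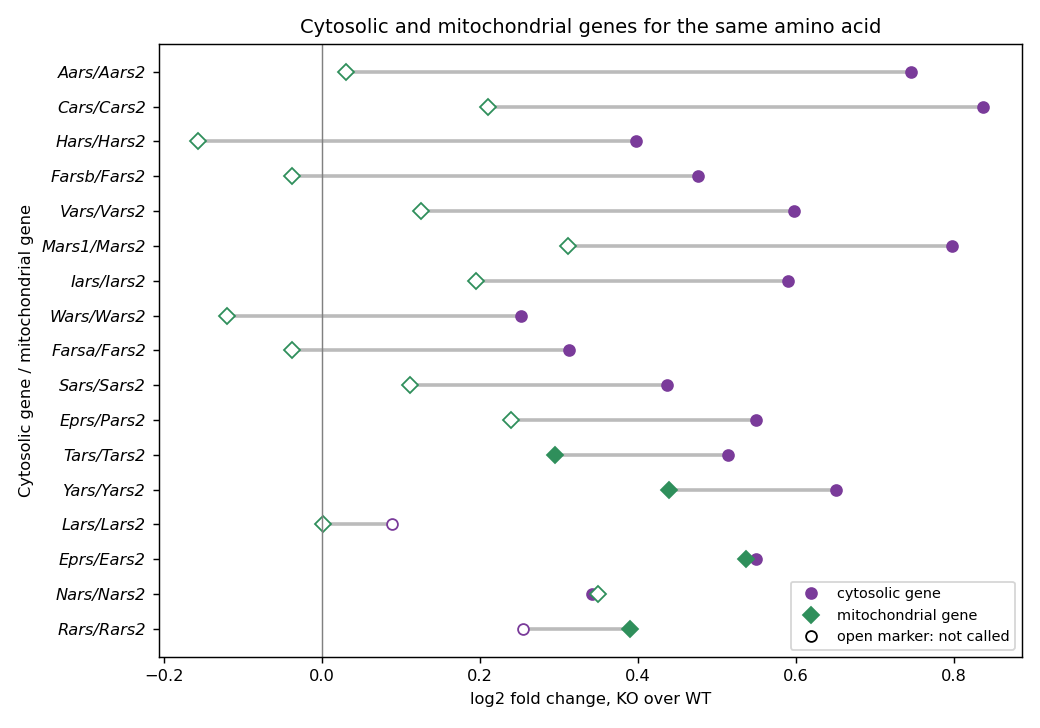
Log2 fold change of the cytosolic gene against that of the mitochondrial gene for each of the 17 pairs that serve the same amino acid, both KO over WT. Of these pairs 3 had both genes called, 12 the cytosolic gene only, 1 the mitochondrial gene only and 1 neither.

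The compartments were then compared within each amino acid. The members form 17 pairs of a cytosolic and a mitochondrial gene, in which Eprs stands for both glutamate and proline, and Fars2 is set against both Farsa and Farsb. The log2 ratio of cytosolic to mitochondrial CPM was taken within each library, so that depth cancels. It was higher in KO in 15 of 17 pairs, with a median difference of 0.35 between KO and WT over the pairs. In 12 pairs every KO library stood above every WT library, in 0 pairs below, and in 5 the groups overlapped. The share over ratios of other gene pairs was not computed. Of single genes tested, 27.0% had all KO libraries above WT and 26.4% all below. Since Eprs and Fars2 each enter more than once, the pairs are not all separate. For each of the 12 a two-sided exact permutation test over the 6 libraries gave p = 0.1, the smallest that 3 libraries against 3 allow, and 0.142 after Benjamini-Hochberg adjustment over the 17 pairs. No pair could therefore pass a threshold of 0.05.

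The largest difference was that of Aars/Aars2, for alanine, whose log2 ratios were 4.24, 4.30 and 4.20 in KO, against 3.51, 3.34 and 3.78 in WT. The KO libraries were close together and all above WT, with means of 4.25 ± 0.05 in KO and 3.54 ± 0.22 in WT (SD, n = 3 each), a difference of 0.70. Cars/Cars2, for cysteine, had log2 ratios of 1.41, 1.98 and 1.96 in KO, against 1.15, 1.07 and 1.28 in WT, a difference of 0.62. Here KO 1 lay nearer to WT than KO 2 and KO 3 did. Hars/Hars2, for histidine, had log2 ratios of 1.49, 1.68 and 1.66 in KO, against 0.99, 1.08 and 1.11 in WT, a difference of 0.55, and every KO library stood above WT.

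The 5 pairs that overlapped were Eprs/Ears2, Lars/Lars2, Nars/Nars2, Rars/Rars2 and Yars/Yars2. Eprs/Ears2 had log2 ratios of 4.29, 4.51 and 4.47 in KO, against 4.34, 4.39 and 4.52 in WT, a difference of 0.01, and both genes rose. Rars/Rars2 had log2 ratios of 2.59, 2.84 and 2.61 in KO, against 2.82, 2.88 and 2.77 in WT. Its difference of -0.14 was the lowest, and it was the only pair in which the mitochondrial gene alone rose. Nars/Nars2 differed by -0.02, Lars/Lars2 by 0.08 and Yars/Yars2 by 0.21.

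As levels per kilobase in WT, the cytosolic gene stood above its mitochondrial partner in 16 of the 17 pairs. The ratio ran up to 50.9 for Nars over Nars2. Lars was the exception, at 0.83 times the level of Lars2. With the union of all exons as the length, the cytosolic gene was the higher one in all 17 pairs.

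The KO libraries were not alike. KO 2 was the highest KO library in 19 of 20 cytosolic genes and KO 1 the lowest in 19 of 20, whereas KO 2 was the highest in 6 of 16 mitochondrial genes and KO 1 the lowest in 11 of 16. Each gene's log2 CPM was centred on its mean over the 6 libraries and averaged over the class. The cytosolic average was 0.09, 0.35 and 0.24 in KO, against -0.23, -0.26 and -0.19 in WT. The mitochondrial average was 0.04, 0.12 and 0.11 in KO, against -0.07, -0.10 and -0.11 in WT. On this scale the groups differed by 0.46 in the cytosolic genes and by 0.18 in the mitochondrial genes, and the WT libraries lay closer together than the KO libraries in both classes.

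**Figure D4:**
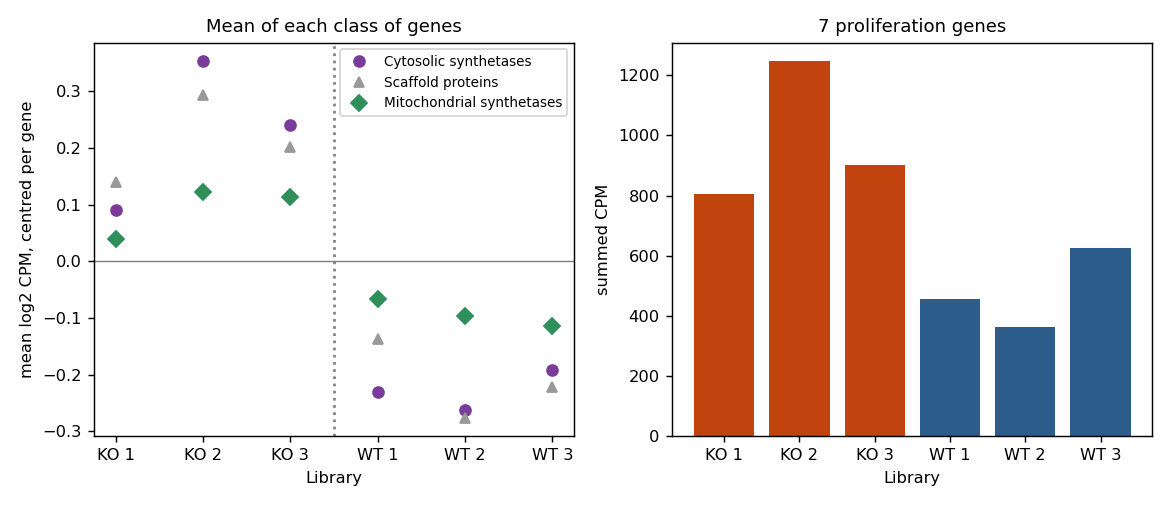
Left, the mean centred log2 CPM of each class in each library. Right, the summed CPM of 7 proliferation genes in the same libraries, with KO 2 highest at 1247 CPM and WT 2 lowest at 361 CPM.

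The summed level of 7 proliferation genes put the libraries of each group in the same order as the cytosolic average. It was 806, 1247 and 901 CPM in KO, against 456, 361 and 626 CPM in WT. In all 7 genes KO 2 was the highest and KO 1 the lowest KO library. The first principal component of the 500 most variable genes gave the same order within each group. Its values were 7.11, 28.4 and 18.4 in KO, against -18.8, -22.9 and -12.2 in WT. The order is thus also that of the main axis of variation among those genes. Of the 7, Pcna, Mcm2 and Birc5 rose and 0 fell by edgeR, against 18.5% and 16.8% of all genes tested. At an unadjusted p under 0.05, 6 were higher and 0 lower, and DESeq2 and limma-voom called 0 falls. The number of rises was 1 without WT 1 and 7 without WT 3. The part of proliferation in the synthetase values was not tested. KO 2 was the library with the highest values in both lists. Without it 16 cytosolic genes rose, against 10.9% of all genes in that fit, and the class median was 0.38 on the log2 scale. In the proliferation sum KO 1 and KO 3 still stood above every WT library, and the part of proliferation was not tested in that fit either.

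Total counts per library were 27170943 to 37113689, and 4532 of the 12862 genes tested were called. That number was 1979 without WT 1 and 5456 without KO 1, so the background itself moved with the libraries. The share of all genes that rose was 21.3% without KO 1, 10.9% without KO 2, 10.1% without KO 3, 7.93% without WT 1, 10.1% without WT 2 and 15.4% without WT 3. The share that fell was 20.4%, 9.91%, 8.10%, 7.21%, 8.85% and 12.6% in the same order. Defining markers of macrophages were abundant, with summed levels over 8 markers of 19539 to 25242 CPM in KO and 31026 to 33588 CPM in WT. Lyz2 alone held 13042 to 18118 CPM in KO and 22772 to 24782 CPM in WT, most of these sums. Of these markers Cd68 rose and Csf1r, Cd14 and Lyz2 fell, and Cd68 alone of the 8 had a positive log2 fold change. Of the T cell, B cell and fibroblast lists 1 gene each passed the filter, Cd4 at 9.99 to 17.8 CPM, Cd79b at 3.19 to 6.11 CPM and Pdgfrb at 2.04 to 4.55 CPM over all libraries, and none was called. Summed T cell markers were 10.9 to 17.8 CPM in KO and 13.3 to 18.4 CPM in WT, B cell markers 3.22 to 6.11 CPM in KO and 4.30 to 5.34 CPM in WT, and fibroblast markers 2.21 to 2.79 CPM in KO and 2.34 to 4.79 CPM in WT. Dcn and Lum of fibroblasts and Alas2 of erythroid cells were at 0 in every library, and the T cell genes Cd3e, Cd3d and Cd3g did not exceed 0.53 CPM. Summed neutrophil markers were 39.9 to 115 CPM in KO and 33.5 to 86.3 CPM in WT, with 0 of 7 tested called. Of 3 dendritic cell markers tested 0 were called. Of 3 megakaryocyte markers tested Ppbp and Itga2b rose, to at most 7.00 CPM, with log2 fold changes of 1.01 and 2.69. The summed level of all 4 listed was 177 to 281 CPM in KO and 167 to 243 CPM in WT. Most of that sum came from a single marker, which was not called. The part of these markers in the synthetase values was not tested.

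Genes around the synthetases were read from 4 further lists. Their counts stand beside the 18.5% of all genes tested that rose and the 16.8% that fell, and no list was tested as such. Of 13 charging partners 4 rose and 1 fell, with a median log2 fold change of 0.23. Eef1e1, the scaffold gene of the complex that stands outside the 38, had 21.3, 28.0 and 24.0 CPM in KO, against 12.4, 11.8 and 12.8 CPM in WT. Its groups were far apart, with a log2 fold change of 0.99 (SE 0.11, adjusted p = 0.00433 by edgeR), so that of the 3 scaffold genes Eef1e1 and Aimp2 rose and Aimp1 was not called. Aarsd1, which removes wrongly attached amino acids from alanine tRNA, rose with a log2 fold change of 0.64, and so did Dtd1, which frees tRNA of D-amino acids, with 0.63. Prorsd1 fell, with -0.26. The rises numbered 2 without KO 2, KO 3 or WT 1, and the fall was lost without any one library other than KO 1, and also by DESeq2, with library totals only, with upper quartile scaling, with no filter and on the deposited signal.

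Gatb, Gatc and Qrsl1, the subunits of the amidotransferase that completes the glutamine tRNA charged by Ears2, were not called. Their log2 fold changes were 0.30, -0.06 and 0.23, with adjusted p-values of 0.0515, 0.439 and 0.132 by edgeR. Mtfmt, which formylates the initiator tRNA of mitochondria after Mars2 has charged it, had -0.01 (adjusted p = 0.950).

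Of 19 genes of tRNA maturation and export tested 7 rose and 1 fell, with a median of 0.20. Elac1, which trims the 3′ end of tRNA, fell, with a log2 fold change of -0.44. Elac2, of the same list, rose, with 0.20 (adjusted p = 0.044 by edgeR). The rises were led by the RNase P subunit genes Rpp40 at 0.70, Rpp30 at 0.57 and Pop1 at 0.49 and by the splicing endonuclease gene Tsen15 at 0.47. The number of rises in this list by edgeR was 6 without KO 1, 2 without KO 2, 3 without KO 3, 0 without WT 1, 1 without WT 2 and 4 without WT 3, while 7 to 9 of its genes were higher at an unadjusted p under 0.05 in each of these fits. Of 10 mitochondrial translation factors 4 rose and 0 fell, Tsfm at 0.48, Tufm at 0.46, Gfm1 at 0.40 and Gfm2 at 0.31. At an unadjusted p under 0.05, 5 of the 10 were higher and 0 lower, and DESeq2 and limma-voom called 0 falls.

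Of 24 genes of ATF4 and the amino acid response 14 rose and 3, Eif2ak3 at -0.39, Cebpg at -0.23 and Sesn2 at -0.20, fell, with a median of 0.54. Atf4 itself had 207, 221 and 220.2 CPM in KO, against 138, 149 and 133 CPM in WT, so that every KO library stood above WT (log2 fold change 0.62, SE 0.06, adjusted p = 0.00417 by edgeR). Chac1 at 2.46, Phgdh at 1.95, Asns at 1.74 and Slc7a5 at 1.60 had the largest called changes of the list. The number of falls was 1 when any library other than KO 1 was left out. The 5 cytosolic genes whose windows held TGATGNAA, shown above, had log2 fold changes of 0.51 to 0.75, and the 8 cytosolic genes with a window but no match 0.08 to 0.80, so the ranges overlapped.

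**Figure D5:**
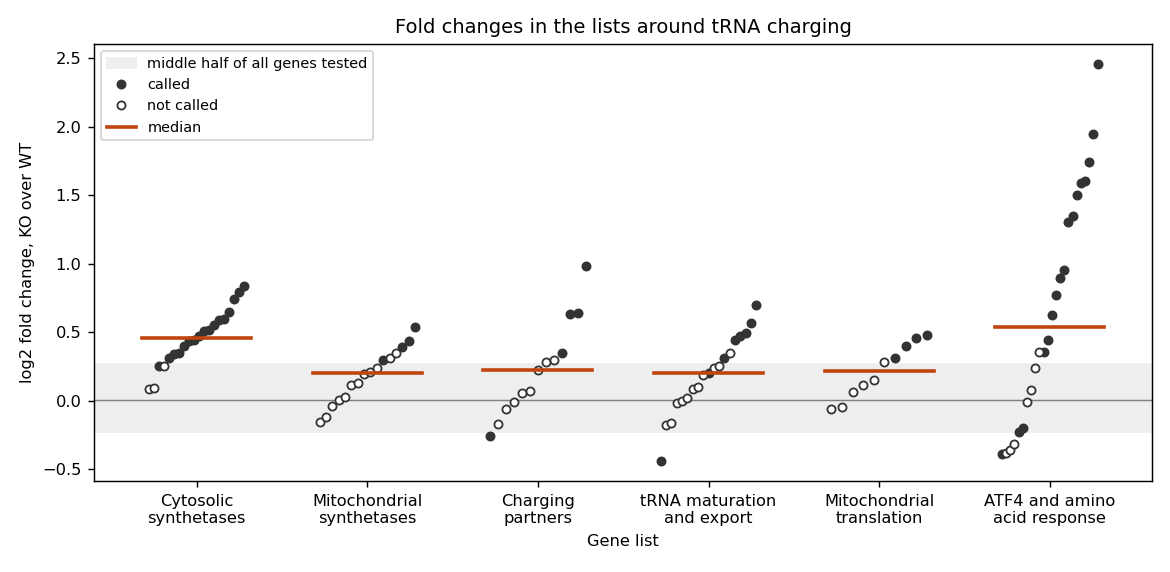
Log2 fold change, KO over WT, of each gene tested in 6 lists, with a bar at each list's median and a grey band between the quartiles of all genes, -0.23 to 0.27. The medians were 0.46 for the cytosolic synthetases and 0.54 for the ATF4 list, and between 0.20 and 0.23 for the other 4 lists.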

How the data were processed

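Total RNA was sequenced from directional libraries, per the labels' protocols. DRAGEN, DESeq2 and mm10 were named in the submitters' processing notes, without versions or roles. The annotation, the counting tool and whether counting used strand were not given in the sources used here. The authors deposited whole-number counts per gene, used for the main test, and a normalized signal per gene, used as an alternative as log2(signal + 1). In that signal each count is divided by a factor particular to its gene and library. Samples were grouped by the genotype in the labels, and replicate numbers follow the sample order. The members and lists, and the motifs, were chosen with earlier results of these data known.

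The main test used edgeR 4.0.16 in R 4.3.3, after filterByExpr (minimum count 10) and TMM scaling, by the robust quasi-likelihood F test without covariates. P-values are two-sided and adjusted by the Benjamini-Hochberg method over 12862 genes, with a threshold of 0.05. SE is the log2 fold change divided by the square root of F, and intervals are 95%. CPM use TMM-scaled totals, and lengths are those of the longest principal transcript in GENCODE M21 (GRCm38, also called mm10), the source of gene coordinates and overlaps. No pair of replicates was a repeat of 1 library, since the chi-square of their counts was 12.6 to 52.6 times its degrees of freedom. On simulated counts edgeR called 166 of 12862 genes, 6 of them falsely, and recovered 63.5% of changes of 1.5-fold and 75% of 2-fold. Smaller changes, and a share of changed genes as large as that called here, were not simulated. Alternatives were DESeq2 1.42.0, limma 3.58.1, other scalings and filters, and each library left out in turn. Library values are given for every called member, for the largest change each way in each class and, after their values were seen, for Lars, Qars, Rars, Aimp1, Lars2, Nars2, Iars2, Cars2 and Mars2. From each further list, the genes named are among the 4 with the largest called changes, apart from Atf4 and those that follow. Prorsd1, Elac1, Elac2, Eif2ak3, Cebpg, Sesn2, Gatb, Gatc, Qrsl1 and Mtfmt were chosen after their values were seen. Some markers, 1 promoter match and 1 charging partner are not reported here.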

Additional observations from a re-analysis of the deposited data

How the results depend on the processing

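Of the 22 members called, 19 were called in all 15 alternatives, among them 16 of the 17 cytosolic genes. Wars, Yars2 and Tars2 lost the call in some. Other tests, scalings and filters called 17 or 18 cytosolic rises and 0 cytosolic falls, and the difference between the medians of the compartments stayed between 0.23 and 0.26 on the log2 scale. With limma-voom and quality weights 8 mitochondrial genes rose and 1 fell (25.6% and 24.4% of all genes), with upper quartile scaling 7 rose (22.8%) with a median of 0.26, and with limma on the deposited signal 2 rose (15.0%). Upper quartile scaling moved the median of all genes to 0.06. Leaving out 1 library gave 16 to 18 cytosolic and 2 to 5 mitochondrial rises, 0 falls in either class, medians of 0.38 to 0.52 and 0.17 to 0.21, a difference of 0.21 to 0.30, and 1979 to 5456 calls over all genes. Fewer samples enter those fits. Rars was called with library totals only, upper quartile scaling, no filter, quality weights or without KO 1. Signs turned only in uncalled genes near 0. For Lars2 the log2 fold change was -0.084 with quality weights, -0.0031 with RLE scaling, -0.0026 with no filter, -0.00024 with a mean CPM of at least 1, -0.014 on the deposited signal and -0.058 to 0.094 with 1 library left out. That of Fars2 was 0.020 with upper quartile scaling and -0.088 to 0.021 with 1 library left out, and that of Vars2 -0.11 on the deposited signal. With 1 library left out Aars2 ran from -0.071 to 0.14 and Lars from -0.0086 to 0.15. The cause of these changes was not tested. The lists other than the synthetase classes were run under the alternatives after the data were seen. No paired analysis was possible because the labels give no replicate numbers shared between the groups. The lowest library count was 818 among the cytosolic and 123 among the mitochondrial genes, and the part of depth in the calls was not tested.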
